A study of Homo sapiens with 372 samples.

Results

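The IFITM family in this series is 3 genes, IFITM1, IFITM2 and IFITM3, out of 9664 genes listed for single A2780 cells. They were taken by symbol, all 3 are listed and all 3 pass the detection filter, and their values were followed over all 6 conditions and, within the paclitaxel cells, over the transcriptional states that the authors' annotation assigns. The genes were chosen with their differences between conditions already known, so their levels are a description and no test is built on them. A2780 cells are a long-used line from a human ovarian carcinoma. The control group was untreated (46 cells). Paclitaxel, which stabilizes microtubules, was given alone at 5 nM for 16 h (56 cells) or 48 h (53 cells). Celecoxib, an inhibitor of cyclooxygenases, was given alone at 75 µM for 2 h (63 cells) or 16 h (61 cells). The combination group received 5 nM paclitaxel and 75 µM celecoxib for 16 h (59 cells). Cells were captured with the Fluidigm C1 system. The labels name no replicate culture, so each condition counts as 1 sample, cells are not replicates of it, and no p-value or standard error was made from cells. The SD values below are spreads over cells.

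The interferon-induced transmembrane proteins are small membrane proteins of the CD225, or dispanin, superfamily. IFITM1 sits mainly at the cell surface, whereas IFITM2 and IFITM3 are drawn into endosomes and lysosomes. They hinder the fusion of enveloped viruses with cell membranes. Their genes are classical targets of interferon signalling, in which JAK kinases activate transcription factors that bind an interferon-stimulated response element (ISRE) near the start of the target gene. Most cells also hold some IFITM3 without interferon, and raised IFITM1 has been described in many tumours.

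The 3 genes lie side by side near the end of the short arm of chromosome 11 (hg38, GENCODE version 44). IFITM2 (ENSG00000185201) spans bases 303655 to 309397 and IFITM1 (ENSG00000185885) bases 310041 to 315272, both on the plus strand, and IFITM3 (ENSG00000142089) spans bases 319676 to 329475 on the minus strand. The canonical transcript of each has 2 exons, and the coding sequences with the stop codon are 378 bases in IFITM1, 399 in IFITM2 and 402 in IFITM3. Over the aligned coding bases, IFITM2 and IFITM3 were identical at 94.0% of positions, IFITM1 and IFITM3 at 87.9%, and IFITM1 and IFITM2 at 86.4%. This likeness decides how far reads can be told apart, so the last 120 coding bases of exon 1 are shown, with capitals at the 10 positions where the 3 genes do not all share a base (chr11:314237-314356 plus strand, chr11:308319-308438 plus strand and chr11:320565-320684 minus strand).
IFITM1: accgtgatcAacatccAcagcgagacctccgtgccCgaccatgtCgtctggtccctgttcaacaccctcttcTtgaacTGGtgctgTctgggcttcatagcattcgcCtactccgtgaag
IFITM2: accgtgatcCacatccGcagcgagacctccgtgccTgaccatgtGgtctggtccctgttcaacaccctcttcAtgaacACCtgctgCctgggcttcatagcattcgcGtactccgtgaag
IFITM3: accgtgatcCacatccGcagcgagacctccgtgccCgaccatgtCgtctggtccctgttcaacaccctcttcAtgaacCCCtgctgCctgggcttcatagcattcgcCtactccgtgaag
In this stretch IFITM2 differed from IFITM3 at 4 positions, IFITM1 from IFITM3 at 7 and IFITM1 from IFITM2 at 10. Across whole transcripts, 11.3% of the 75-base words of IFITM1 also occurred in IFITM3 and 4.21% in IFITM2. Of those of IFITM2, 2.68% occurred in IFITM3. Of those of IFITM3, 12.5% occurred in IFITM1 and 4.66% in IFITM2. Shorter words were shared more, with 21.3% of the 31-base words of IFITM1 in IFITM3 and 23.4% of those of IFITM3 in IFITM1. Part of the reads of one member could therefore be assigned to another by the authors' RSEM estimate, and the sum of the 3 linear values is given beside the single genes.

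Because the ISRE is the element through which interferon acts on these genes, a stretch of 30 bases with a match to it is shown for the 2 members found in the RefSeq promoter table (GRCh38.p14). Capitals mark the motif searched on both strands, a GAAA, any 2 bases and another GAAA.
IFITM1: cagGAAATAGAAActtaagagaaatacaca
IFITM3: cagGAAAAGGAAActgttgaGAAACCGAAA
The IFITM1 stretch is chr11:313997-314026 on the plus strand and the IFITM3 stretch is chr11:320886-320915 on the minus strand. Both promoters held 2 matches on the strand of the gene. Distances are from the start used in the promoter table, which for both genes lies within the span given above and not at its end. In IFITM1 the matches began 40 and 6 bases upstream of that start. The second of them lay outside the stretch shown and crossed the start. In IFITM3 the matches began 52 and 35 bases upstream. Among all 35116 promoters of the table, each of the same length, 3.57% held the motif. Of the 33 promoters of listed interferon-stimulated genes outside the family, 48.5% held it. A match of these letters is not evidence of binding.

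Expression was measured with Smart-seq2, which copies whole polyA-tailed RNAs and does not mark the strand. Where an antisense gene overlaps IFITM3, their reads therefore cannot be told apart by strand. The deposited E-value is log2(N/10 + 1), where N is the TPM of a gene after division by the relative TPM that its most abundant spike-in RNA had in that cell. TPM is per transcript length, so levels of different genes may be compared. Read depth is unknown, and between 6126 and 6630 genes were detected in the median cell of a condition. The total of N over all genes differed between conditions. Its median relative to the control was -0.99 and -0.64 (log2) after 16 and 48 h of paclitaxel, -0.76 and -1.52 after 2 and 16 h of celecoxib, and 0.49 with both drugs. Differences are therefore given on the deposited scale and again at the same total, that is, after each cell's linear values were rescaled to a common sum and the spike-in scaling was thereby taken out. Of 9 epithelial markers only KRT18 was listed, and it was detected in 23.9 to 36.5% of the cells of a condition, and of 3 mesenchymal markers only VIM, detected in 62.5 to 86.8%. Of 5 fibroblast markers 3 were listed, COL3A1 (57.4 to 83.0% of cells), COL1A2 (10.7 to 32.8%) and LUM (10.2 to 29.5%). None of 3 endothelial markers was listed, and of 6 leukocyte markers only LYZ, detected in 37.0 to 60.7% of cells at mean E-values of 0.11 to 0.24. The part of these markers in the results was not tested.

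IFITM1 was the lowest of the 3 members in untreated cells. Its difference from them in mean E-value was the highest of the 3, with its sign, in each treatment. By log2 ratios of mean linear values IFITM2 was the highest instead in each treatment, with 1.59 beside 1.10 for IFITM1 after 48 h of paclitaxel. The E-value of IFITM1 ran from 0 to 8.95 over the control cells with a median of 4.45 and a mean of 4.05 ± 2.79 (SD, n = 46 cells). After 16 h of paclitaxel it ran from 0 to 8.64, with a median of 5.40 and a mean of 4.76 ± 2.27. After 48 h of paclitaxel it ran from 0 to 8.69, with a median of 6.83 and a mean of 6.39 ± 1.77. The highest single cells of these 3 groups thus lay close together, while the upper quartile was 6.22 in control cells, 6.34 after 16 h and 7.68 after 48 h of paclitaxel. With celecoxib the median was 6.01 after 2 h (range 0 to 8.64, mean 5.59 ± 2.13) and 4.82 after 16 h (range 0 to 7.37, mean 4.68 ± 1.74). With both drugs the range was 0 to 10.8, the median 7.53 and the mean 7.14 ± 2.16. All groups overlapped, and 45 of the 53 cells after 48 h of paclitaxel and 55 of the 59 cells with both drugs lay above the control median.

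IFITM2 followed the same order of conditions as IFITM1 on a slightly higher level. In control cells it ran from 0 to 8.73 with a median of 5.29 and a mean of 4.77 ± 2.51. After 48 h of paclitaxel the range was 0 to 10.2, the median 7.40 and the mean 7.01 ± 1.92, and with both drugs the range was 0 to 11.0, the median 7.97 and the mean 7.71 ± 1.97. These were the 2 conditions with the highest levels, and 46 of 53 and 53 of 59 cells lay above the control median. The means were 6.13 ± 2.05 after 2 h and 4.99 ± 1.81 after 16 h of celecoxib and 5.20 ± 2.30 after 16 h of paclitaxel. In the order of means, control, celecoxib 16 h and paclitaxel 16 h stood within 0.43 of each other, which is less than the SD over cells of any of them.

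IFITM3 was the most abundant member and kept another order. Its control E-values ran from 0 to 9.70 with a median of 8.32 and a mean of 7.76 ± 2.02. The means were lower after 16 h of paclitaxel (6.76 ± 1.69, range 0 to 9.05, median 6.98) and after 16 h of celecoxib (6.69 ± 1.47, range 2.02 to 8.83, median 7.05). They were 8.24 ± 1.12 after 48 h of paclitaxel (range 3.55 to 10.2, median 8.52), 7.70 ± 1.54 after 2 h of celecoxib and 8.97 ± 1.28 with both drugs (range 3.55 to 11.8, median 9.03). After 16 h of either single drug no cell exceeded the upper quartile of the control cells, whereas 29 of 59 cells with both drugs did.

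**Figure D1:**
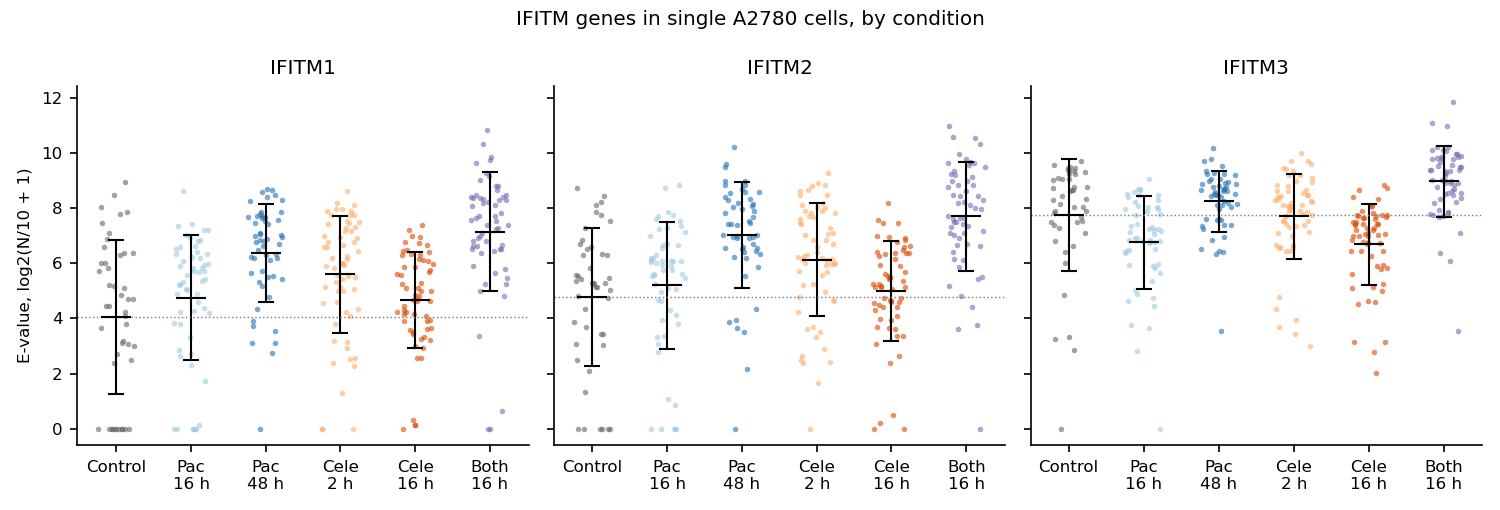
E-values (log2(N/10 + 1), vertical axis) of IFITM1, IFITM2 and IFITM3 in each cell (1 point) of the 6 conditions, with the mean and SD over cells as black bars and the control mean as a dotted line. IFITM1 and IFITM2 are highest with both drugs and after 48 h of paclitaxel (means 7.14 and 6.39 for IFITM1). For IFITM1 and IFITM2 the control group holds the most cells at 0.

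Relative to control, IFITM1 and IFITM2 stood among the largest positive differences of all genes in several treatments, while IFITM3 lay between the 1st and 99th percentile of genes in each of them on the deposited scale. After 48 h of paclitaxel the mean E-value of IFITM1 was 2.34 higher than in control cells, the second largest difference of the 9655 genes past the detection filter (over 30% of cells in any condition), and that of IFITM2 was 2.24 higher, the third largest. IFITM3 was 0.48 higher, which is within the limit of 1.5-fold (0.58 on the log2 scale) used by the study. Thus 2 of the 3 members were past the limit upwards, where 0.922% of all genes were, and 0 downwards, where 26.6% were. The median over all genes was -0.26, so that all 3 members lay above it. With the same total in each cell the differences were 2.80 for IFITM1, 2.76 for IFITM2 and 1.09 for IFITM3. As log2 ratios of mean linear values, which weigh the highest cells most, they were 1.10, 1.59 and 0.09.

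After 16 h of paclitaxel the difference from control was 0.71 for IFITM1, 0.43 for IFITM2 and -0.999 for IFITM3. Of the members, 1 was past the limit upwards (0.0932% of all genes) and 1 downwards (37.3%). The all-gene median was -0.41, and at the same total the differences were 1.32, 1.11 and -0.22. IFITM1 was higher by its mean E-value but not by its mean linear value, which was 572 normalized TPM after 16 h and 630 in control cells (log2 ratio -0.14).

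After 2 h of celecoxib, IFITM1 was 1.55 and IFITM2 1.36 higher than in control cells and IFITM3 differed by -0.06. Here 2 members were past the limit upwards (1.12% of all genes) and 0 downwards (25.7%). After 16 h of celecoxib the differences were 0.63, 0.22 and -1.07, with 1 member past the limit upwards (0.383%) and 1 downwards (43.9%). The mean linear values of IFITM1 and IFITM2 at that time were below those of control cells (log2 ratios -0.58 and -0.47), and at the same total all 3 members were above control, by 1.80, 1.45 and 0.29.

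With both drugs IFITM1 was 3.09, IFITM2 2.93 and IFITM3 1.21 higher than in control cells, ranking 3, 7 and 496 among 9655 genes. All 3 members were past the limit, in a comparison in which 30.4% of all genes were past it upwards and 1.76% downwards and the all-gene median was 0.33. At the same total the differences were 2.31, 2.16 and 0.49, and as log2 ratios of mean linear values 2.14, 2.39 and 0.94. By mean E-value on the deposited scale, IFITM1 was the 1 gene of 9655 past the limit upwards in all 5 treatments. By mean linear value it was below control after 16 h of paclitaxel and of celecoxib (log2 ratios -0.14 and -0.58). All 5 differences share the same control cells. The members were chosen on these contrasts, and nothing is read from their counts beside the background.

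The summed value of the 3 genes had a lower difference from control, with its sign, than IFITM1 and IFITM2 in each treatment. Its mean on the E-value scale was 8.14 ± 2.12 in control cells and differed from that by -0.55 after 16 h and 0.98 after 48 h of paclitaxel, by 0.36 after 2 h and -0.71 after 16 h of celecoxib, and by 1.77 with both drugs. With equal totals all 5 differences were positive, at 0.24, 1.59, 0.91, 0.65 and 1.04 in the same order. The direction for the sum after 16 h of either single drug thus flips with the scaling.

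**Figure D2:**
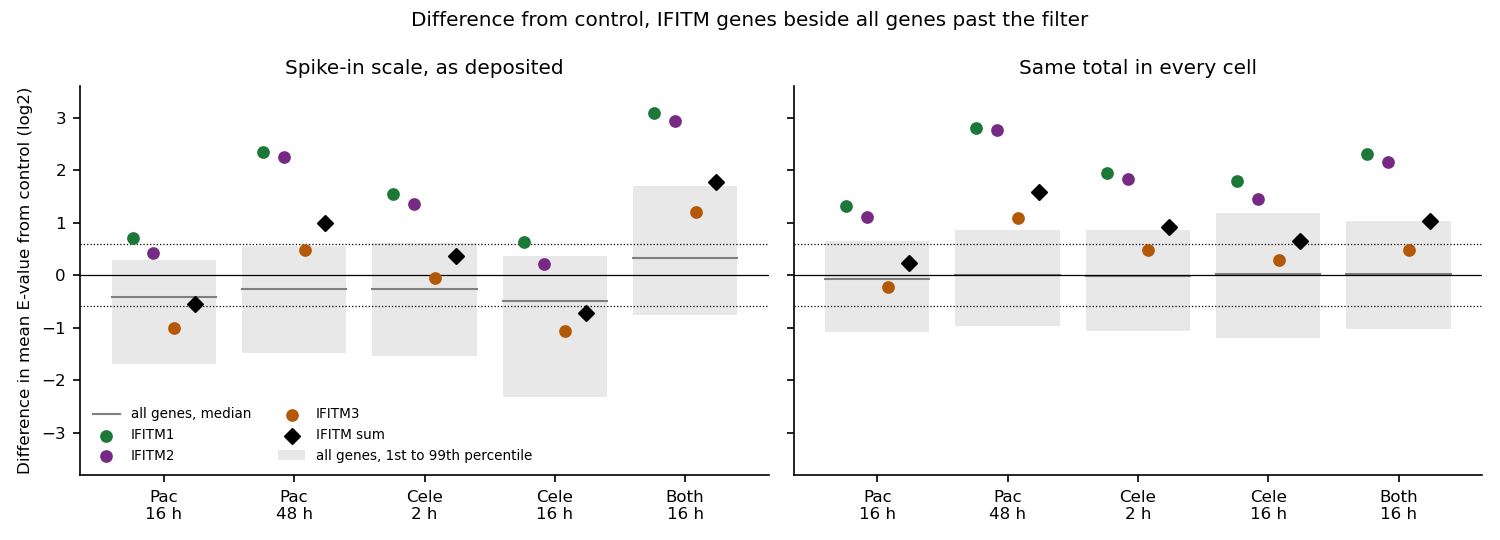
Difference in mean E-value from control (log2, vertical axis) of IFITM1, IFITM2, IFITM3 and their sum in each treatment, on the deposited scale (left) and with the same total in every cell (right); grey bars span the 1st to 99th percentile of all 9655 genes, grey lines are their median and dotted lines the 1.5-fold limit. IFITM1 lies above the 99th percentile of genes in all 5 treatments on both scales, and IFITM3 after 16 h of paclitaxel lies at -0.999 on the left and -0.22 on the right.

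IFITM1 was undetected in a larger share of control cells than of treated cells. It was detected (E-value above 0) in 35 of 46 control cells, or 76.1% (exact Clopper-Pearson 95% interval 61.2 to 87.4%, for counting error only). The share was 89.3% after 16 h (78.1 to 96.0%) and 98.1% after 48 h (89.9 to 100%) of paclitaxel. It was 95.2% after 2 h and 98.4% after 16 h of celecoxib and 96.6% with both drugs. IFITM2 was detected in 87.0% of control cells (73.7 to 95.1%) and in 91.1 to 98.4% of treated ones. IFITM3 was detected in 45 of 46 control cells and in 98.2 to 100% of the cells of each treatment. All 3 members were found together in 35 of 46 control cells, 51 of 53 cells after 48 h of paclitaxel and 57 of 59 cells with both drugs. The median cell had 6630 genes detected in the control group and 6126 to 6351 in the treatments. At the lower end, the 25th percentile of IFITM1 was 2.42 in control cells, 3.82 after 16 h and 5.53 after 48 h of paclitaxel, 4.58 after 2 h and 3.66 after 16 h of celecoxib and 6.51 with both drugs.

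Within a single cell the spike-in scaling cancels in the share of each member. IFITM3 made up 83.1% of the summed linear value in the median control cell (quartiles 63.6 and 94.2%). In the median treated cell it made up 55.0% after 16 h and 52.8% after 48 h of paclitaxel, 60.3% after 2 h and 64.3% after 16 h of celecoxib, and 53.9% with both drugs. The share of IFITM1 in the median cell was 7.34% in the control group and 15.9 to 17.9% in the treatments, and that of IFITM2 9.01% and 19.9 to 27.4%. Taken instead over the mean linear values of a condition, where cells with more RNA relative to the spike-in weigh more, IFITM3 made up 71.9% in control cells, 54.9% and 51.1% with paclitaxel, 56.5% and 60.2% with celecoxib and 50.4% with both drugs (46.2% and 56.2% in the 2 blocks of sample numbers that hold its cells). The control group had the highest share of IFITM3 by both measures, and the order of the 2 lowest conditions changed between them. As a difference in E-value, in which 10 normalized TPM are added to each gene and the scaling does not cancel fully, IFITM1 was 3.17 log2 units below IFITM3 in the median control cell (quartiles -5.01 and -2.07) and between 1.58 and 1.99 below it in each treatment. The difference of IFITM1 from IFITM2 varied less, with medians between -0.57 and -0.26 over the 6 conditions. IFITM3 was the most abundant member in 44 of the 45 control cells with any member, and IFITM2 in the remaining 1. In treated cells it was the most abundant in 47 of 55 after 16 h and 47 of 53 after 48 h of paclitaxel, 58 of 63 and 55 of 61 with celecoxib and 51 of 59 with both drugs.

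**Figure D3:**
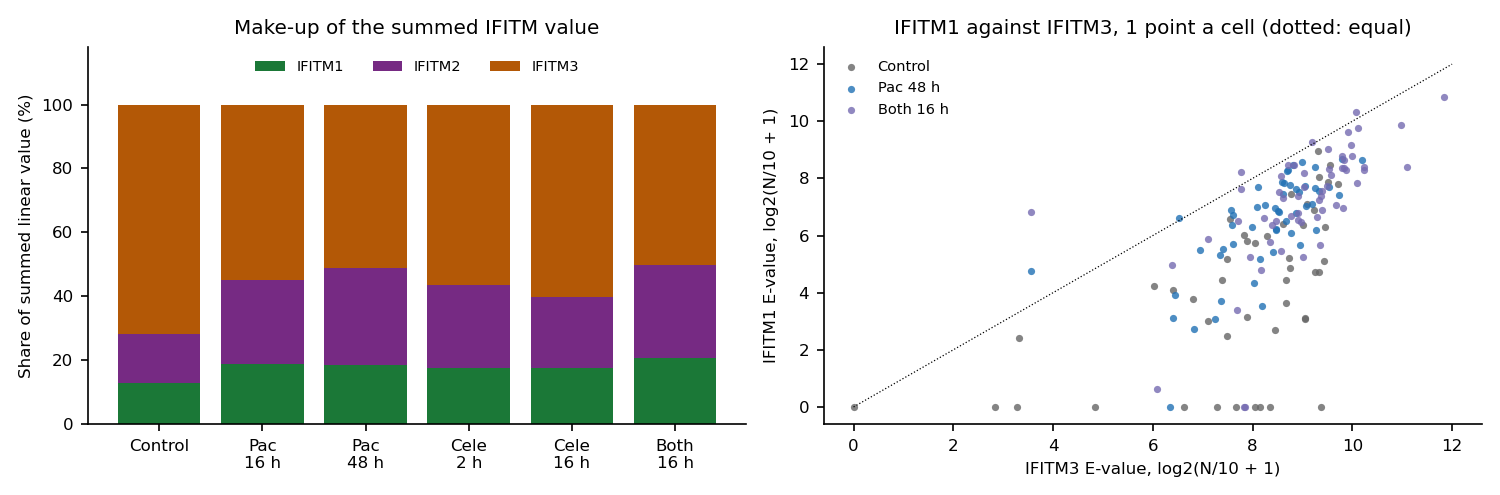
Left, the share (%, vertical axis) of each member in the summed mean linear value of the 3 genes, by condition, with IFITM3 at 71.9% in control cells and 50.4% with both drugs. Right, IFITM1 against IFITM3 E-values (log2(N/10 + 1)), 1 point a cell of the control, 48 h paclitaxel and combination groups; most cells lie below the dotted line of equal values, and control cells lie farthest below it.

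Between the time points of paclitaxel all 3 members were higher after 48 h than after 16 h, by 1.63 for IFITM1, 1.81 for IFITM2 and 1.48 for IFITM3, and by 1.47, 1.65 and 1.30 at the same total. In this comparison 7.89% of all genes were past the limit upwards and the all-gene median was 0.11. Between 2 and 16 h of celecoxib they went the other way, by -0.91, -1.14 and -1.01, where 19.4% of all genes were past the limit downwards. With equal totals these differences shrank to -0.15, -0.37 and -0.20, all within the limit. The combination exceeded paclitaxel alone after 16 h by 2.38, 2.50 and 2.21 (62.5% of all genes were past the limit upwards), and by 0.99, 1.05 and 0.70 at the same total. It exceeded celecoxib alone after 16 h by 2.46, 2.71 and 2.28 (66% of all genes), and by 0.51, 0.71 and 0.19 at the same total.

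Paclitaxel cells were split by the state in the authors' annotation, which a random forest set from the expression of these cells, so the following values are a description. After 48 h 28 cells were control-like and 25 suppressed, with none amplified. IFITM1 was 6.92 ± 1.37 in control-like cells and 5.79 ± 2.00 in suppressed cells, with a range of 3.09 upwards in the former and a lowest value of 0 in the latter. IFITM2 was 7.69 ± 1.80 and 6.25 ± 1.78, and IFITM3 8.83 ± 0.61 and 7.59 ± 1.20. The differences between the states were 1.12, 1.44 and 1.24, in a comparison in which 34.5% of all genes were past the limit and the all-gene median was 0.38. Rescaled to the same total they were 0.41, 0.70 and 0.49. After 16 h the 23 control-like cells exceeded the 31 suppressed cells by 0.63, 0.70 and 0.62 (35.5% of all genes past the limit), and at the same total the signs turned to -0.12, -0.07 and -0.19. The same split of the cells with 2 h of celecoxib (26 control-like, 33 suppressed) gave 0.58, 0.62 and 0.92 (30.1% of all genes past the limit), and -0.03, -0.02 and 0.27 at the same total. The annotation has amplified as another state, with 2 cells after 16 h of paclitaxel (means of 6.60, 6.91 and 8.88 for IFITM1, IFITM2 and IFITM3), 4 after 2 h of celecoxib (7.66, 8.36 and 9.07) and 58 of the 59 cells with both drugs. The authors trained the random forest with control, 16 h celecoxib and combination cells as the control-like, suppressed and amplified states. The count for both drugs is therefore not independent of the training labels.

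Both states after 48 h were above untreated cells for IFITM1 and IFITM2. Control-like cells exceeded control cells by 2.87 for IFITM1, 2.92 for IFITM2 and 1.07 for IFITM3, with 3.2% of all genes past the limit upwards. Suppressed cells exceeded them by 1.74 and 1.48 and differed by -0.17 for IFITM3. Here 0.508% of all genes were past the limit upwards and 41.9% downwards. At the same total control-like cells exceeded control cells by 2.99, 3.09 and 1.32 (4.98% of all genes past the limit upwards). Suppressed cells then exceeded them by 2.58, 2.39 and 0.83 (4.43%), so that IFITM3 was past the limit in both states. After 16 h of paclitaxel, control-like cells differed from control cells by 1.00, 0.77 and -0.72 on the deposited scale. There 0.839% of all genes were past the limit upwards and 20.3% downwards. The suppressed cells at 16 h differed from control cells by 0.37, 0.07 and -1.34 (0.0829% and 51.9%). The cells after 48 h also came from 2 blocks of 96 sample numbers in the library names, and all control cells carried numbers of block 4. The 31 cells after 48 h within block 4 exceeded the control cells by 2.80 for IFITM1, 2.61 for IFITM2 and 0.70 for IFITM3, and the 22 cells of block 2 by 1.68, 1.73 and 0.18. For the combination the 34 cells of block 1 and the 25 cells of block 3 exceeded control by 3.10 and 3.09 for IFITM1, by 3.14 and 2.66 for IFITM2 and by 1.10 and 1.36 for IFITM3. No cell of the combination was in block 4, so its differences from control cannot be told apart from block. For the other 3 treatments, too, condition and block cannot be told apart.

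**Figure D4:**
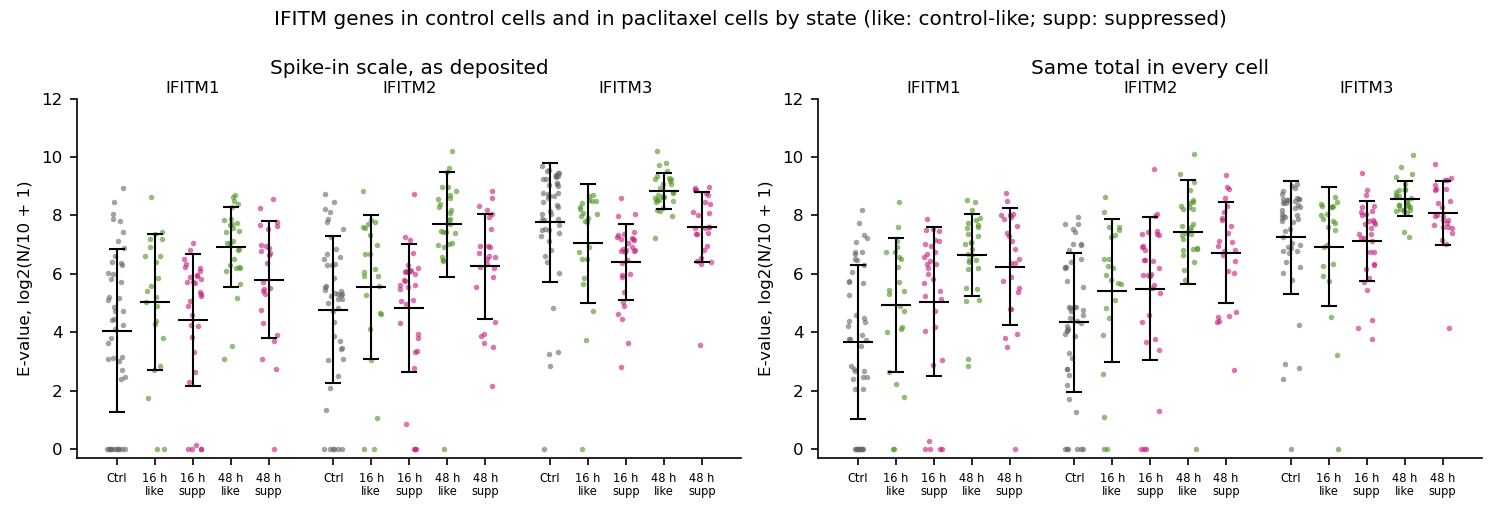
E-values (log2(N/10 + 1), vertical axis) of the 3 genes in control cells (grey) and in control-like (green) and suppressed (pink) cells after 16 and 48 h of paclitaxel, 1 point a cell, with mean and SD over cells, on the deposited scale (left) and at the same total (right). For IFITM1 both 48 h states (means 6.92 and 5.79 on the left) lie above the control mean of 4.05.

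Cells with more of one member held more of the others in every condition. The Spearman coefficient between IFITM1 and IFITM2 over cells lay between 0.88 and 0.95 in the 6 conditions, between IFITM1 and IFITM3 between 0.61 and 0.80, and between IFITM2 and IFITM3 between 0.64 and 0.85. These are descriptions over 46 to 63 cells that share a condition and a spike-in scaling, and shared reads of like sequences enter them too. The coefficients of IFITM1 with IFITM2 were 0.88 to 0.96 at the same total. Against the log2 total of the cell, the coefficient of IFITM1 was 0.04 in control cells and 0.37 after 48 h of paclitaxel, and that of IFITM3 was 0.27 and 0.65. The spread of the members was also wide for their level. Against genes in the same of 100 bins of mean E-value, the coefficient of variation of IFITM1 and IFITM2 was over 2 bin SDs above the bin mean in all 6 conditions, as it was for 1.39 to 1.9% of genes. IFITM3 was past this mark in 5 conditions and not after 48 h of paclitaxel, where it stood at 1.03 bin SDs.

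The 8 genes outside the family with the highest coefficients against the summed IFITM value over cells after 48 h of paclitaxel, at the same total and of 8740 compared, were IRF2BP2 (0.54), a corepressor that binds IRF2, SCN9A (0.52), a sodium channel, BIRC6, TATDN3, PRKX, RTFDC1, MPG and CRABP2 (0.40), which carries retinoic acid to the nucleus. The 99th percentile over genes was 0.32. CRABP2 had coefficients of 0.56 in control cells, 0.41 after 16 h of paclitaxel, 0.41 after 2 h of celecoxib and 0.35 with both drugs, but 0.03 after 16 h of celecoxib. IRF2BP2 stood at 0.10 in control cells and -0.25 after 16 h of paclitaxel. The highest gene in control cells was EMP3 (0.66), a small membrane protein, and with both drugs S100A11 (0.49), a calcium-binding protein.

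The other interferon-stimulated genes all differed less upwards from control than IFITM1 and IFITM2 after 48 h of paclitaxel and with both drugs. Of 75 genes in the list, 34 were tested. After 48 h of paclitaxel 3 were past the limit upwards (0.922% of all genes) and 7 downwards (26.6%), with a median of -0.11, beside an all-gene median of -0.26. The 3 were BST2 (0.99), which tethers budding virus to the cell, IFI27L2 (0.95) and IFI35 (0.76). With equal totals 5 were past the limit upwards (3.28% of all genes) and 1 downwards (5.78%), with a median of 0.08. The lowest were IFI30, a lysosomal thiol reductase (-1.38), PSMB10, a subunit of the immunoproteasome (-1.07), and LY6E (-0.71). The 16 genes of the list with the ISRE letters in their promoters ran from -1.07 (PSMB10) to 0.99 (BST2). After 16 h of paclitaxel 1 gene of the list was past the limit upwards, IFI27L2 (0.70), and 10 were downwards, where 0.0932% and 37.3% of all genes were. With celecoxib 3 were upwards and 6 downwards after 2 h (1.12% and 25.7% of all genes), and 0 and 11 after 16 h (0.383% and 43.9%). The 3 after 2 h were again IFI27L2 (0.82), BST2 (0.62) and IFI35 (0.59). With equal totals 2 were upwards and 1 downwards after 16 h of paclitaxel (1.4% and 10% of all genes). For celecoxib the counts were then 4 and 3 after 2 h (3.31% and 8.12%). They turned to 7 upwards and 0 downwards after 16 h of celecoxib (7.37% and 7.95%), with a median of 0.24.

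With both drugs 13 of the 34 were past the limit upwards and 0 downwards, with a median of 0.43, where 30.4% of all genes were past it upwards and the all-gene median was 0.33. BST2 had the largest difference of the list (2.07, and 1.35 at the same total), followed by UBE2L6 (1.79), the enzyme that joins ISG15 to proteins. Rescaled, 5 were upwards (5.96% of all genes) and 1 downwards (5.8%).

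**Figure D5:**
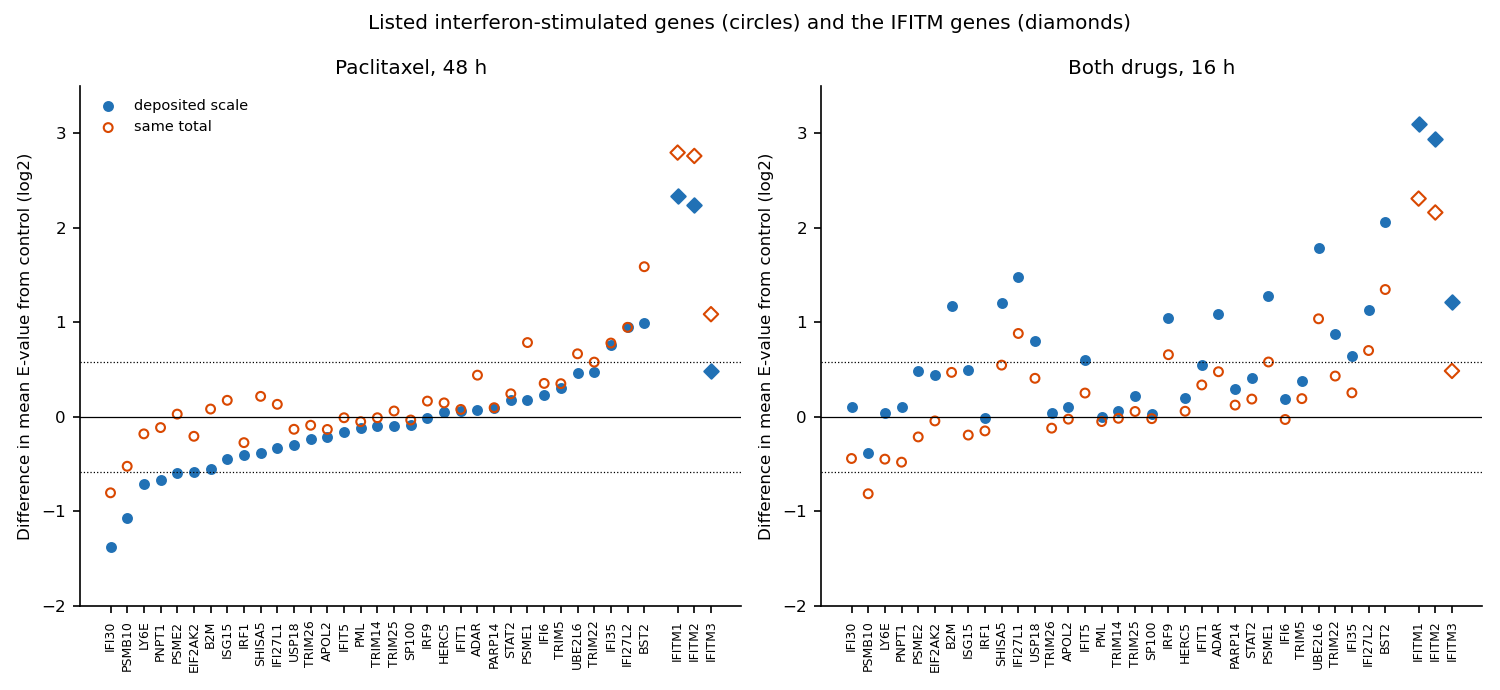
Difference in mean E-value from control (log2, vertical axis) of 33 of the 34 tested interferon-stimulated genes (circles, ordered by their difference after 48 h of paclitaxel) and of IFITM1, IFITM2 and IFITM3 (diamonds), on the deposited scale (filled) and at the same total (open); dotted lines are the 1.5-fold limit. IFITM1 and IFITM2 lie above every other gene shown in both treatments, and BST2 is the next.

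The signalling genes ahead of the ISRE were counted in the same way. Of 17 tested ligands, receptors and JAK-STAT genes, of which 4 also stand in the interferon-stimulated list, 0 were past the limit upwards and 4 downwards after 48 h of paclitaxel (0.922% and 26.6% of all genes). Among these were the phosphatases PTPN2 (-1.14) and PTPN11 (-0.80), which act against and in JAK-STAT signalling, and the STAT inhibitor PIAS1 (-1.11). With equal totals 1 was upwards, the interferon receptor chain IFNAR2 (0.87), and 2 downwards, PIAS1 (-0.64) and PTPN2 (-0.61), with a median of -0.02. With both drugs 8 of the 17 were past the limit upwards (30.4% of all genes), among them the interferon gamma receptor chain IFNGR1 (1.20) and IRF9 (1.05), the 2 that remained past it at the same total (0.64 and 0.66). Of 7 tested genes of nucleic acid sensing, 0 were upwards and 2 downwards after 48 h of paclitaxel (26.6% of all genes), the kinase TBK1 (-0.64) and the transcription factor IRF3 (-0.61). TRAF3 and MAVS differed by -0.44 and -0.06. With both drugs TBK1 (0.67) and the sensor DDX41 (0.70) were the 2 past the limit upwards (30.4% of all genes). At the same total none of the 7 was past the limit in either treatment.

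Of 13 tested genes whose products act on IFITM proteins, 0 were past the limit upwards and 6 downwards after 48 h of paclitaxel (0.922% and 26.6% of all genes), among them VAPA, which binds IFITM3 (-1.11), the clathrin adaptor subunits AP2M1 (-0.87) and AP2S1 (-0.80), and the demethylase KDM1A (-0.85). With both drugs 5 were upwards (30.4% of all genes), including AP2B1 (1.16) and the ubiquitin ligase NEDD4 (0.87). With equal totals none of the 13 was past the limit in either treatment. Of 11 other dispanin genes only PRRT2 was listed, with differences between -0.15 and 0.12. Among 15 tested neighbours of the cluster on chromosome 11, 0 were past the limit upwards and 5 downwards after 48 h of paclitaxel (0.922% and 26.6% of all genes), with a range of -1.37 to 0.44. The lowest were HRAS, a GTPase (-1.37), the proteasome subunit PSMD13 (-1.08), TALDO1 (-0.73) and SIGIRR (-0.71). With both drugs the neighbours ran from -1.05 (HRAS) to 1.12 (DEAF1), with 5 upwards (30.4% of all genes) and 1 downwards (1.76%). With equal totals only HRAS was past the limit, at -0.90 after 48 h of paclitaxel and -1.29 with both drugs.

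Over the 5 treatments, the genes nearest to the mean pattern of the 3 members, by the root mean square distance of their differences from control among 9652 genes, were TRAPPC6A (0.27), a subunit of a vesicle tethering complex, SNCG (0.31), the gamma-synuclein gene, BST2 (0.39), PLA2G16 (0.44), a phospholipase, PDCD4 (0.47), an inhibitor of translation, and CRYL1 (0.48). IFITM1 itself lay 0.66, IFITM2 0.44 and IFITM3 1.10 from that mean. SNCG was 0.55 and 1.59 above control after 16 and 48 h of paclitaxel and 2.02 with both drugs. The measure rests on 5 differences with the same control cells and says nothing of shared control.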

How the data were processed

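Single A2780 cells of 6 conditions were profiled with Smart-seq2 on the Fluidigm C1 system. Adapters were trimmed by the authors (Trim Galore), and TPM were estimated by RSEM (1.3.0, with Bowtie2) against GENCODE 28 for hg38 plus 3 spike-in RNAs, then scaled in each cell to its highest spike-in. What was deposited is the log2 value E = log2(N/10 + 1), N being this normalized TPM, for 9664 genes and 338 of 372 cells, after the authors removed cells with low housekeeping genes and genes detected in at most 30% of cells in each condition. No reads or counts were used here, so depth is unknown and no doublet caller was run.

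Columns were matched to samples by name. N was recovered as 10 × (2 to the power E, minus 1), and a sum over members was put back on the E-value scale. A condition was compared with control by the difference in mean E-value, called past log2 of 1.5, over the 9655 genes found in over 30% of cells in any condition. Differences understate the change of weak genes, since 10 normalized TPM are added. Each condition is 1 sample, so there was no test. Exact Clopper-Pearson 95% intervals are given for shares. The fold call on the deposited scale was tested on data simulated from control cells, with changes in single genes and no shift set over all genes. The same-total scale, the sum, the shares and the coefficients were not tested in this way. The members, the gene lists and the rule for named genes were chosen with earlier results of these data known. Besides the members, the genes named were, in each list, up to 4 with the largest difference after 48 h of paclitaxel and up to 2 with both drugs (detected in at least 30% of both groups), the 6 nearest in pattern and the 8 with the highest Spearman coefficient. Other genes named for a count of 5 or fewer or for the highest coefficient in a condition were chosen after their values were seen. Alternatives were the same total per cell, a pseudocount of 1, ratios of linear means, medians, no filter or one of 50%, blocks alone, cells with totals within the 10th to 90th percentile of control, and omission of the well noted as 0 or debris. Coordinates and transcripts are from GENCODE version 44, and promoters from RefSeq. Versions were pandas 2.3.3, numpy 2.4.6, Biopython 1.88, scipy 1.17.1 and matplotlib 3.10.9 under Python 3.11.15. A gene of the lists is counted but not reported singly.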

Additional observations from a re-analysis of the deposited data

Results flagged for a closer look

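IFITM3 and the summed IFITM value stood on opposite sides of control at the time points of the same drug, which is why they are listed here. With paclitaxel IFITM3 was at -0.999 after 16 h and at 0.484 after 48 h (difference in mean E-value from control, log2), and the sum was at -0.548 and 0.985. With celecoxib the sum was at 0.365 after 2 h, within the limit, and at -0.711 after 16 h. By medians it was below control at both celecoxib times (-0.0624 and -0.993). The difference between time points was not tested, since each condition is 1 sample, and all values share the same control cells. At the same total in every cell the sum was above control in all 5 treatments, while IFITM3 stayed at -0.22 after 16 h and 1.09 after 48 h of paclitaxel.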

How the results depend on the processing

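IFITM1 and IFITM2 were past the limit above control after 48 h of paclitaxel, after 2 h of celecoxib and with both drugs under all alternatives run. IFITM1 ranged from 1.10 to 3.19 after 48 h of paclitaxel, from 0.59 to 2.36 after 2 h of celecoxib and from 1.26 to 3.79 with both drugs, and IFITM2 from 1.59 to 3.34, 0.90 to 2.14 and 1.52 to 3.36. The other calls depended on the scale. As log2 ratios of linear means, IFITM1 turned to -0.138 after 16 h of paclitaxel and -0.576 after 16 h of celecoxib, the sum after 16 h of paclitaxel passed the limit at -0.691, and the sum of control-like minus suppressed cells after 16 h of paclitaxel passed it at 0.861. With medians, IFITM1 after 16 h of celecoxib was 0.370 and the sum after 16 h of paclitaxel -0.753. At the same total, IFITM2 passed the limit after 16 h of paclitaxel (1.11) and of celecoxib (1.45), IFITM3 fell within it after 16 h of paclitaxel (-0.218) and with both drugs (0.486), passed it after 48 h of paclitaxel (1.09) and turned positive after 16 h of celecoxib (0.291), and the sum was 0.913 after 2 h and turned to 0.654 after 16 h of celecoxib. Between control-like and suppressed cells at the same total, IFITM1, IFITM2 and IFITM3 turned to -0.115, -0.0744 and -0.187 after 16 h, and IFITM1, IFITM3 and the sum fell within the limit after 48 h (0.414, 0.487 and 0.491). The same total with ratios of linear means, chosen after seeing the data, gave IFITM2 0.925 and 0.816 after 16 h of paclitaxel and of celecoxib, IFITM3 -0.309 and 0.660 after 16 and 48 h of paclitaxel, 0.0765 after 16 h of celecoxib and 0.166 with both drugs, and the sum 0.324 after 16 h of celecoxib. Among cells with totals within the control range (36 control cells, 13 and 19 with paclitaxel, 20 and 0 with celecoxib after 2 and 16 h, 26 with both drugs), IFITM2 was 1.60 and IFITM3 -0.359 after 16 h of paclitaxel, IFITM3 was 1.22 after 48 h, and IFITM3 and the sum were 0.656 and 1.04 after 2 h of celecoxib. This alternative could not be run after 16 h of celecoxib. After 48 h of paclitaxel, IFITM3 in block 4 alone passed the limit (0.698), as the sum in block 2 alone did not (0.577), and IFITM1 differed between states by 0.415 in block 4 alone. With a pseudocount of 1, IFITM3 differed between states after 16 h by 0.493. Leaving out the well noted as 0 or debris changed no call. The cause of these changes was not tested.

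Counts of genes past the limit moved with the scale. At the same total, 135 genes were higher and 969 lower after 16 h and 317 and 558 after 48 h of paclitaxel, 320 and 784 after 2 h and 712 and 768 after 16 h of celecoxib, and 575 and 560 with both drugs. As ratios of linear means the counts were 304 and 5761, 710 and 4245, 709 and 3771, 266 and 7335, and 6969 higher with both drugs. A filter of 50% of cells left 5 genes higher after 16 h of paclitaxel in place of 9. No paired analysis was possible because each condition is 1 sample and the numbers in the sample titles are not shared between conditions.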

Other observations

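On the deposited scale 7 genes were past the limit above control at both paclitaxel times. They were IFITM1, IFI27L2, the glycolytic enzyme gene ALDOC, the gamma-secretase subunit gene APH1B, ANKRD20A1, TBC1D32 and VMO1, and all were chosen after their values were seen.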
